A study of Bos taurus with 8 samples.

Results

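DNA methylation at 10 genes that define skeletal muscle was measured in cells that are not muscle. The genes were chosen by name: the myogenic regulators MYOD1, MYF5, MYF6, MYOG and MEF2C, the growth inhibitor MSTN, the contractile and structural genes ACTA1, DES and TTN, and the metabolic gene CKM. Every 3Kb window that carried 1 of these names was taken, together with 2 windows on each side. This gave 10 of the 26209 named genes and 167 of the 902984 windows, plus 37 flanking windows. The cells were un-treated dermal fibroblast cultures, grown from skin biopsies of the shoulder of 4 Holstein heifers (a dairy breed) and 4 Angus heifers (a beef breed), and harvested at passage 5 with no exposure to LPS. Each culture came from 1 animal and gave 1 library, so the spread between libraries of a breed is the spread between animals, and breed and the way each herd was reared cannot be told apart. In MIRA-Seq, sonicated DNA is passed over proteins that bind methylated CpG sites, and the recovered fragments are sequenced. A window with many reads therefore holds more methylated CpG sites, either because more of its sites are methylated or because it has more sites, and these cannot be told apart here.

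The 4 myogenic regulatory factors (MYF5, MYOD1, MYOG and MYF6) are related transcription factors that commit cells to the muscle lineage and switch on the genes of the contractile apparatus, with MEF2C as a partner. MYOD1 is known for its ability to turn cultured fibroblasts into muscle-like cells. Fibroblasts do not normally use these genes. Methylation of a promoter tends to go with lower transcription, but a silent gene need not carry it. Only DNA was measured in the libraries used here, so expression of the 10 genes and of fibroblast markers was not analysed here.

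Between 18691111 and 35525554 reads per library fell in windows, and counts are given as counts per 1000000 of these reads (CPM) per 3Kb window, which also makes genes of different length comparable. At this depth 3 reads correspond to 0.0844 to 0.161 CPM. Holstein 1 and Angus 3 stood apart from the other libraries, with normalization factors of 0.817 and 0.677 and 19.99% and 26.1% of their reads on unplaced scaffolds, against 10.6 to 16.1% in the other 6. Their CPM at the muscle genes was often the lowest of their breed. CPM holds no normalization factor. Overlaps and orders of cultures given in CPM can therefore differ from those of the scaled values used in the breed tests. All positions are in UMD v3.1.

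All 167 windows of the 10 genes held at least 1 read, and 129 held a read in every library. The median window of these genes had 0.389 CPM, beside 0.339 CPM for all windows with a gene name and 0.280 CPM for all windows. A level of 1 CPM or more in 4 or more libraries was reached in 31 of the 167 windows (18.6%), beside 18.9% of all windows with a gene name. TTN held 22 of these windows, MEF2C 3, CKM 2, and MYF5, MYOG, ACTA1 and DES 1 each. MYOD1, MYF6 and MSTN held none.

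The first window of each gene in the direction of transcription, which stands here for its promoter region, differed widely among the 10 genes. MYF5, MYOG and CKM had first windows of more than 2 CPM, higher than those of 93.6, 93.4 and 92.3% of all named genes. Between 0.491 and 0.663 CPM were found in ACTA1, MYOD1, DES, MYF6 and TTN, while MSTN had 0.266 and MEF2C 0.0861 CPM (means of 8 libraries). The median over the 10 genes was 0.611 CPM, beside 0.395 CPM over all 26209 genes. Of the 9 steps between neighbours in this order, 2 were larger than their SD over the 8 libraries. These were the step from CKM down to ACTA1 (1.48 ± 0.542 CPM, SD, n = 8) and that from MSTN down to MEF2C (0.180 ± 0.139 CPM), each seen in 8 of 8 libraries. The other 7 steps lay within that spread.

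**Figure D1:**
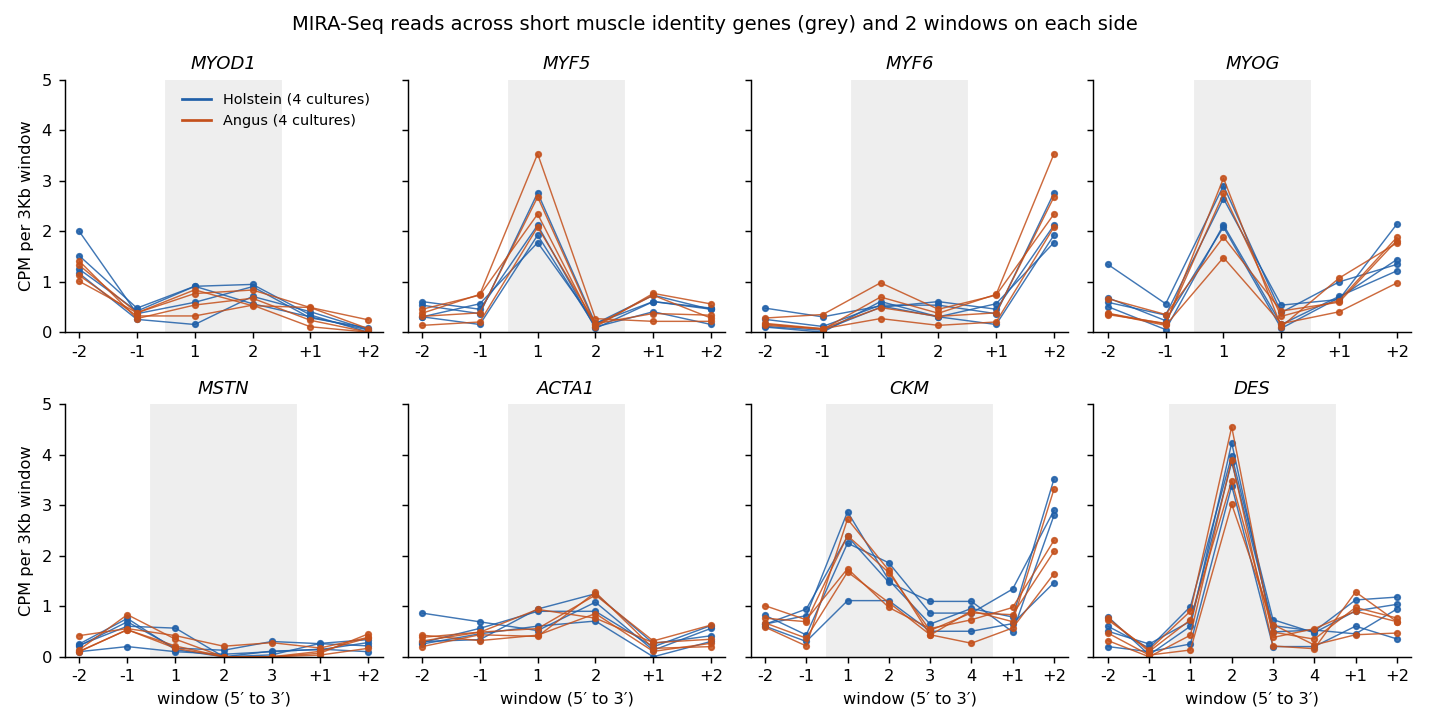
CPM per 3Kb window (vertical axis) in each library for the 8 genes of 2 to 4 windows (grey) and 2 windows on each side, in 5′ to 3′ order, with 1 line for each of 4 Holstein (blue) and 4 Angus (orange) cultures. MYF5, MYOG and CKM are highest in their first window, DES in its second, and the lines of both breeds overlap in each gene.

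MYF5, the first of the regulatory factors to act in the embryo, lies on chromosome 5 (+ strand), and its first window (5:10337606-10340605) holds coding exon 1. The Holstein cultures 1 to 4 had 1.92, 1.77, 2.12 and 2.76 CPM there and the Angus cultures 1 to 4 had 2.34, 2.68, 2.08 and 3.53 CPM. All 8 libraries were high, from 1.77 to 3.53 CPM, and the breeds overlapped on this scale, which has no normalization factor. With the normalization factors, each Angus culture lay above each Holstein culture. In the second window, with coding exon 2, the mean was 0.150 ± 0.0599 CPM (SD, n = 8). The first window thus held 94.2% of the 536 reads of the gene.

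MYF6, which acts late in fibre maturation, lies just upstream of MYF5 on the same strand. The names MYF6, LOC100849058 and MYF5 fill 5 consecutive windows. The MYF6 first window (5:10328606-10331605, coding exon 1) had 0.607, 0.519, 0.492 and 0.535 in Holstein and 0.977, 0.487, 0.269 and 0.696 CPM in Angus. The Holstein values lay inside the wider Angus range. The window between both genes, named LOC100849058, had 0.384 ± 0.174 in Holstein and 0.517 ± 0.270 CPM in Angus (SD, n = 4 each), so within this run of windows the high level was that of the MYF5 first window.

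MYOD1, the regulator that can convert fibroblasts, lies on chromosome 15 (− strand). Its first window (15:35333457-35336456, coding exon 1) had 0.152, 0.909, 0.908 and 0.591 in Holstein and 0.838, 0.765, 0.537 and 0.321 CPM in Angus, from 3 to 24 reads per library. Holstein 1 was the lowest of the 8 and the breeds overlapped. Its second window (15:35330457-35333456, coding exon 3) was its highest, at 0.779 ± 0.177 in Holstein and 0.641 ± 0.145 CPM in Angus. More reads than in either gene window were found in the second window upstream (15:35339457-35342456), which carries no gene name and was picked out after its values had been seen, at 1.48 ± 0.376 in Holstein and 1.22 ± 0.184 CPM in Angus.

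MYOG, or myogenin, which drives the differentiation of committed myoblasts, lies on chromosome 16 (− strand), with its listed coding exon 3 in the first window (16:596981-599980). There the Holstein cultures had 2.12, 2.90, 2.08 and 2.65 CPM and the Angus cultures 1.88, 2.75, 1.48 and 3.05 CPM. On the CPM scale Angus 3 was lowest and Angus 4 highest, so the Angus cultures spanned the Holstein range there. This window held 89.0% of the 553 reads of the gene.

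MEF2C, a partner of the myogenic factors that also acts in heart, bone and brain, was at the other end. It spans 53 windows of chromosome 7 (− strand), and its first window (7:90761946-90764945), which has no coding exon, held 18 reads in all libraries together. The values were 0, 0.0866, 0.114 and 0.0844 CPM in Holstein and 0.175, 0.0695, 0 and 0.161 CPM in Angus. Most of these are at or below the level of 3 reads, and the 2 libraries without a read were Holstein 1 and Angus 3. Its highest window was window 26 (7:90686946-90689945), which holds coding exon 2, with 1.21, 1.43, 2.08 and 2.25 CPM in Holstein and 1.501, 1.43, 2.01 and 1.66 CPM in Angus.

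MSTN encodes myostatin, a secreted factor that limits muscle growth and whose loss gives double-muscled cattle. It lies on chromosome 2 (+ strand), with its first window at 2:6211634-6214633 (coding exon 1). That window had 0.101, 0.173, 0.568 and 0.141 in Holstein and 0.419, 0.348, 0.168 and 0.214 CPM in Angus. Holstein 3 was the highest of the 8 and the other 3 Holstein cultures were at or below 0.173 CPM. Over its 3 windows the gene had 0.140 ± 0.0867 CPM per window (SD, n = 8), from 89 reads in all. Only 8.36% of named genes had less.

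Among the structural genes, DES encodes desmin, the intermediate filament that ties muscle fibrils together. Its first window (2:108072934-108075933, coding exon 1) had 0.253, 0.995, 0.605 and 0.704 in Holstein and 0.733, 0.904, 0.134 and 0.428 CPM in Angus. The second window (2:108075934-108078933, coding exon 2) was far higher, with 3.39, 3.98, 4.24 and 3.86 CPM in Holstein and 3.49, 4.55, 3.02 and 3.91 CPM in Angus. It was above the first window in every library, held 71.8% of the gene's reads and was higher than 97.3% of windows with a gene name. The window just upstream of the gene had 0.141 ± 0.0929 in Holstein and 0.0693 ± 0.0638 CPM in Angus.

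ACTA1, the actin of skeletal muscle thin filaments, had a first window (28:421865-424864, no coding exon, − strand) of 0.607, 0.519, 0.946 and 0.901 CPM in Holstein and 0.559, 0.939, 0.403 and 0.428 CPM in Angus. Its second window (28:418865-421864, coding exon 6) had 0.985 ± 0.233 in Holstein and 1.03 ± 0.257 CPM in Angus. The ranges of the breeds overlapped in both windows. CKM, the creatine kinase that buffers ATP in muscle, had 1.11, 2.25, 2.38 and 2.87 in Holstein and 1.75, 2.40, 1.68 and 2.73 CPM in Angus in its first window (18:53391398-53394397, no coding exon, − strand). Holstein 1 was the lowest and the other libraries were above 1.6 CPM. The level was lower in its other windows, which had a mean of 0.945 ± 0.232 CPM (SD, n = 8). TTN, which encodes the giant elastic protein titin, had 0.303, 0.606, 0.454 and 0.760 in Holstein and 0.489, 0.730, 0.269 and 0.321 CPM in Angus in its first window (2:18053734-18056733, no coding exon, + strand), where Angus 3 and Holstein 1 were lowest.

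The first window was next compared with the rest of each gene within each library (edgeR likelihood-ratio test with library as a block, reads per length, FDR < 0.1 and FC ≥ 2). The first window was higher in 4 of the 10 genes and lower in 2. Of the 18839 genes tested, 12.2% were higher and 36.5% lower in the first window, and the median log2 ratio was −0.54. For MYF5 the log2 ratio of first window to rest was 3.98 ± 0.21 (SE; adjusted p = 1.63e-80, edgeR) and for MYOG 3.04 ± 0.21 (adjusted p = 1.23e-48, edgeR), with the first window above the rest in 8 of 8 libraries for each. These ratios exceeded those of 99.7 and 99.0% of all genes tested, which were of any length. Both genes have 2 windows, and they were not ranked among genes of 2 windows alone. CKM was higher by 1.19 ± 0.12 (adjusted p = 3.94e-23, edgeR; 8 of 8 libraries). The fourth was MSTN, at 1.93 ± 0.38 (adjusted p = 7.28e-07, edgeR; 7 of 8 libraries), although 3 Angus cultures had no read at all in its other windows. MSTN had fewer reads than the minimum set for other genes and was tested only as a member of the list.

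The 2 genes with a lower first window were DES, at −1.41 ± 0.17 (adjusted p = 2.60e-16, edgeR), and MEF2C, at −2.09 ± 0.28 (adjusted p = 1.72e-13, edgeR), each lower in 8 of 8 libraries. When the first 2 windows of a gene stood for its promoter region, the sign for DES turned, to 2.33, because its high second window then counted with the first, and MSTN was no longer called, at 0.62. The other 4 genes did not reach the fold change of 2. TTN had −0.52 ± 0.16 (adjusted p = 0.00121, edgeR), ACTA1 −0.60 ± 0.20 (adjusted p = 0.00463, edgeR), MYF6 0.56 ± 0.23 (adjusted p = 0.02002, edgeR) and MYOD1 −0.18 ± 0.21 (adjusted p = 0.428, edgeR). Within the family of myogenic regulatory factors, MYF5 and MYOG therefore had reads concentrated in the first window, while MYOD1 and MYF6 did not pass the thresholds. In each of these factors the rest was 1 window. For MYOG the first window lists coding exon 3 and the other window none, so its ratio does not compare promoter with coding sequence.

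**Figure D2:**
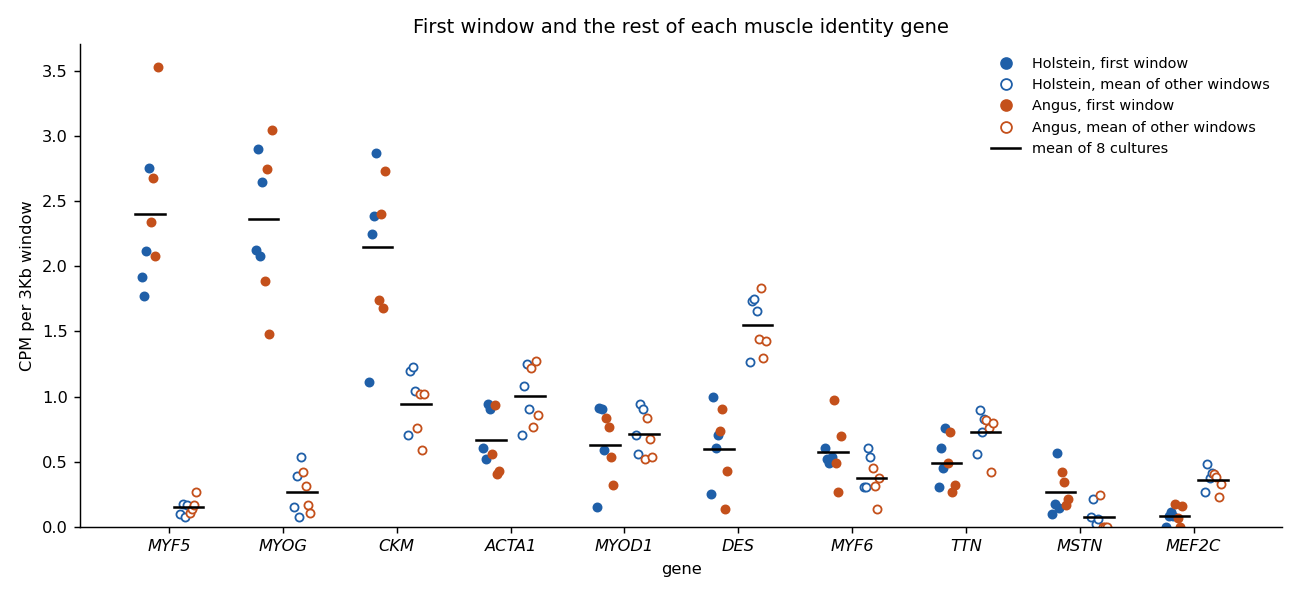
CPM per 3Kb window (vertical axis) in the first window (filled) and mean over the other windows (open) of each of the 10 genes, with 1 point per culture and the mean of 8 cultures as a bar. MYF5, MYOG and CKM have a higher first window in all 8 cultures, whereas DES, TTN and MEF2C have a lower first window in all 8.

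The 2 long genes allowed levels to be followed along the gene. TTN spans 93 windows (2:18053734-18332733) and gave 14185 reads, the most of the 10 genes. Its windows 1 to 20 had a mean of 0.535 ± 0.101 in Holstein and 0.517 ± 0.113 CPM in Angus, and windows 41 to 70 had 0.350 ± 0.0931 and 0.325 ± 0.105 CPM (SD, n = 4 each). In windows 71 to 93 the level was 1.71 ± 0.286 in Holstein and 1.55 ± 0.448 CPM in Angus. By library, this 3′ stretch had 1.31, 1.98, 1.72 and 1.85 in Holstein and 1.69, 1.68, 0.899 and 1.93 CPM in Angus, so Angus 3 was lowest, and the level of each culture there was above that of its other stretches. These stretches were drawn after their values had been seen and are a description.

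Over the last 25% of the TTN windows the level was 3.85 times that of the rest, a split also made with the profile known. This ratio was above that of 98.6% of the 1457 genes of at least 50 windows, for which the median was 1.17. The highest window of the gene was window 91 (2:18323734-18326733, coding exon 309), with 3.34, 5.15, 4.62 and 4.70 CPM in Holstein and 3.84, 3.93, 2.38 and 6.15 CPM in Angus. Both the lowest and the highest of these values were in Angus cultures. Windows 77 to 81 and window 54 were picked out after their values had been seen. The former all list the same coding exon, 276, so this very long exon reaches into each of them. Their levels over the 8 libraries were 2.40, 1.74, 0.819, 1.66 and 1.55 CPM. The lowest window of the gene, window 54 (2:18212734-18215733, coding exon 169), held 2 reads in all 8 libraries together.

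Windows of TTN with a coding exon (82 of 93) had 0.816 ± 0.154 in Holstein and 0.757 ± 0.202 CPM in Angus, against 0.254 ± 0.0905 and 0.236 ± 0.0855 CPM in the 11 windows without one. The ratio over the 8 libraries was 3.21, above that of 97.0% of the 1299 genes of at least 50 windows that have both kinds (median 1.21). All 11 windows without a coding exon lay outside the high stretch of windows 71 to 93. The ratio therefore also holds the rise towards the 3′ end, and the 2 were not separated. MEF2C, with coding exons in 7 of its 53 windows, had 0.568 ± 0.0972 CPM in coding and 0.351 ± 0.0942 CPM in other windows in Holstein, and 0.559 ± 0.0367 and 0.297 ± 0.0851 CPM in Angus. Its ratio of 1.74 was above that of 76.3% of these genes. This ratio of means leans on window 26, which had 1.70 CPM over the 8 libraries. The median was 0.314 CPM in the 7 coding windows and 0.233 CPM in the others.

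In MEF2C the 19 windows upstream of coding exon 1 had a mean of 0.211 ± 0.0662 in Holstein and 0.189 ± 0.0365 CPM in Angus, and windows 26 to 53, from coding exon 2 on, had 0.522 ± 0.113 and 0.456 ± 0.111 CPM. Within the low upstream stretch, window 10 (7:90734946-90737945, no coding exon), picked out after its values had been seen, had 0.961, 1.73, 1.63 and 1.604 CPM in Holstein and 1.08, 1.46, 1.41 and 1.23 CPM in Angus. All 8 libraries were near or above 1 CPM there. The last 25% of the MEF2C windows had 1.17 times the level of the rest, close to the median of long genes.

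**Figure D3:**
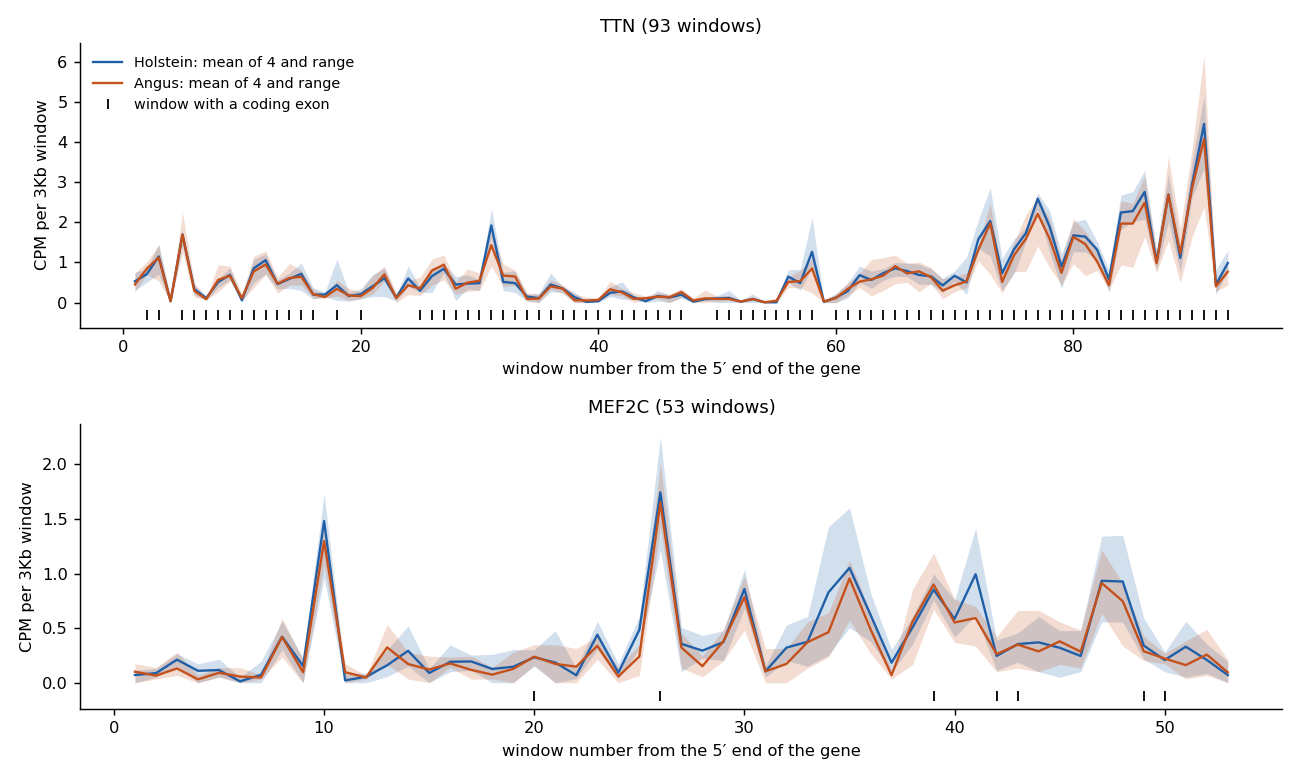
Mean CPM per 3Kb window (vertical axis) along TTN (93 windows) and MEF2C (53 windows) from the 5′ end for 4 Holstein (blue) and 4 Angus (orange) cultures, with the range of the 4 as a band and ticks below for windows with a coding exon. The level of TTN is highest in windows 71 to 93, MEF2C peaks at windows 10 and 26, and the bands of both breeds overlap along both genes.

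Whether the muscle genes differed between the dairy and the beef breed was tested with edgeR (likelihood-ratio test, FDR < 0.1 and FC ≥ 2, Holstein against Angus). No window of the 10 genes was called (0 of 167), and the quasi-likelihood test of edgeR also called 0. DESeq2 gave an adjusted p for only 23 of the 167 windows and called 0 of these. Over all 115530 windows tested, 0.232% were called. An unadjusted p under 0.05 was found for 9 of the 167 windows (5.39%), beside 4.94% of all windows, and for 2 windows by the quasi-likelihood test and 1 by DESeq2. On the CPM scale, which has no normalization factor, in none of the 167 windows did all cultures of one breed lie above all of the other. This was the case in 1.31% of all windows tested. The count was not made with the normalization factors that the test uses. With those factors, each Angus culture lay above each Holstein culture in the MYF5 first window. Unlike almost all other windows tested, most of the 167 fell below the filter of 1 CPM in 4 libraries. These shares therefore set windows of unlike depth side by side. When only windows that passed this filter were tested, 31 of the 167 remained. Of these, 0 were called and 1 (3.23%) had an unadjusted p under 0.05 (edgeR likelihood-ratio test). Summed over gene bodies, 0 of the 10 genes were called by edgeR, by its quasi-likelihood test and by DESeq2, beside 0.0464% of 19409 genes. On the CPM scale the breeds were separate in none of the 10 gene bodies, beside 0.34% of all gene bodies tested. This count too was not made with the normalization factors.

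MYF5 had the lowest unadjusted p of the gene bodies and the only one under 0.05, which was the case for 1.53% of all gene bodies tested. It was also under 0.05 by the quasi-likelihood test and by DESeq2, but not in 6 of the 18 alternatives run: with total counts only, without Holstein 2, Holstein 3, Angus 3 or Angus 4, and without Holstein 1 and Angus 3 together. Its gene body had 1.01, 0.974, 1.10 and 1.46 CPM per window in Holstein and 1.22, 1.41, 1.13 and 1.90 CPM in Angus. On this scale, which has no normalization factor, Angus 4 was highest, and Holstein 4 lay above 3 of the 4 Angus cultures. With the normalization factors that the test uses, each Angus culture lay above each Holstein culture. This order was looked at after the values had been seen. The log2 difference, Holstein over Angus, was −0.43 ± 0.19 (SE; edgeR, adjusted p = 1.00). For its first window the difference was −0.42 ± 0.17 (edgeR, adjusted p = 0.710). The gene body difference was negative under each of the 18 alternatives, between −0.50 and −0.30.

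The other 9 gene bodies had log2 differences between −0.11 (MSTN, SE 0.51) and 0.05 (MEF2C, SE 0.15). TTN, with the most reads, had the smallest error, at −0.01 ± 0.13. These differences use TMM normalization, and 7 of the 9 were below 0. With total counts only, which moved the median of all gene bodies to 0.147, all 9 were above 0, between 0.03 and 0.20, so no direction is given for them. Mean levels per window on the CPM scale, which has no TMM factor and is higher in Holstein for each of the 9, were in Holstein and Angus 0.7499 ± 0.146 and 0.696 ± 0.186 CPM for TTN, 1.36 ± 0.239 and 1.26 ± 0.249 CPM for DES, and 1.36 ± 0.296 and 1.27 ± 0.354 CPM for MYOG (SD, n = 4 each). For CKM they were 1.32 ± 0.342 and 1.17 ± 0.279 CPM, for ACTA1 0.864 ± 0.185 and 0.806 ± 0.111 CPM, and for MYOD1 0.710 ± 0.206 and 0.628 ± 0.156 CPM. The lower levels of MYF6 were 0.487 ± 0.0654 and 0.463 ± 0.217 CPM, those of MEF2C 0.380 ± 0.0899 and 0.331 ± 0.0781 CPM, and those of MSTN 0.143 ± 0.0678 and 0.136 ± 0.114 CPM. In each of these genes the difference between the breed means was smaller than the larger of the 2 SDs.

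**Figure D4:**
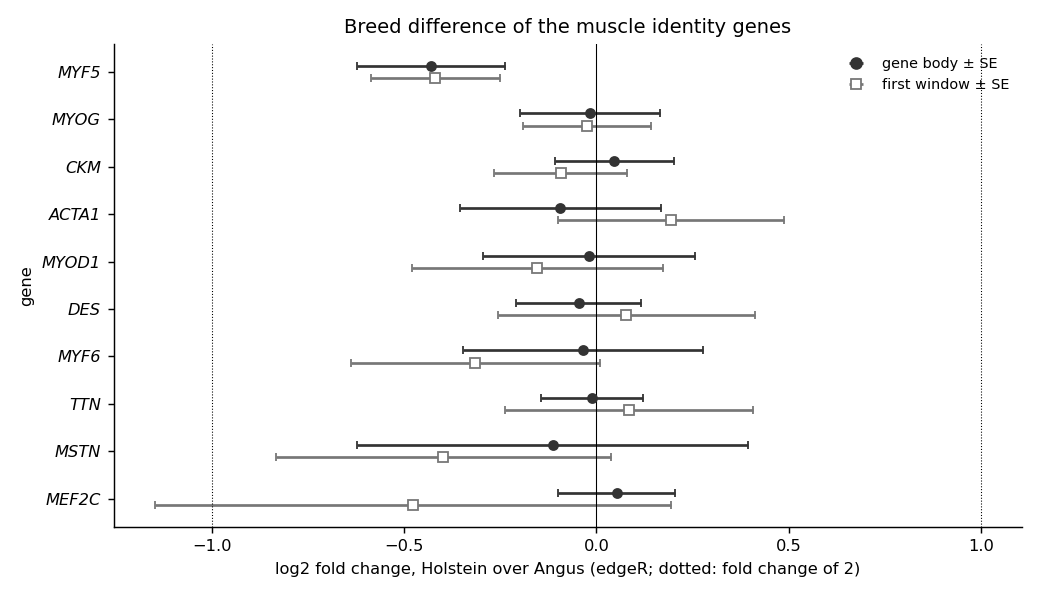
Log2 fold change of Holstein over Angus (horizontal axis, edgeR) with SE for the gene body (filled) and first window (open) of each of the 10 genes, with dotted lines at a fold change of 2. No point passes the dotted lines, and MYF5 is the gene whose gene body and first window both lie more than 2 SE below 0.

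Of the single windows, the lowest unadjusted p was that of a MEF2C window without a coding exon (7:90731946-90734945). It held 12 reads in all: 0, 2, 0 and 0 in Holstein and 5, 3, 0 and 2 in Angus. Its log2 difference was −2.21 ± 0.87 (edgeR, adjusted p = 0.678). This window and the MYF5 first window were picked out after their values had been seen. Window 3 of MSTN (2:6217634-6220633) was the only window of the 10 genes called under any of the alternatives, and only without Angus 1 (edgeR, adjusted p = 0.0759). It held 2, 7, 1 and 4 reads in Holstein and 8, 0, 0 and 0 in Angus. With all libraries the log2 difference was 0.63 ± 0.65 (edgeR, adjusted p = 1.00).

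The 10 genes were set beside other genes of muscle and of the cell types that a skin biopsy can hold. First windows of at least 1 CPM were found in 3 of the 10 genes, in 4 of 18 other regulators of muscle formation, in 17 of 40 other contractile and structural genes and in 10 of 21 metabolic and calcium handling genes of striated muscle. The shares were 3 of 25 for genes active in dermal fibroblasts, 2 of 10 for smooth muscle and pericyte genes and 6 of 15 for keratinocyte genes, beside 20.5% of all genes. Median first windows were 0.401 CPM for the other regulators, 0.767 CPM for the contractile genes, 0.8286 CPM for the metabolic and calcium genes, 0.253 CPM for the fibroblast genes, 0.652 CPM for the smooth muscle genes and 0.421 CPM for the keratinocyte genes. The lists overlapped widely in range.

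Among the other regulators, TMEM8C, the myoblast fusion protein myomaker, had the highest first window (2.90 ± 0.738 CPM, SD, n = 8), and PAX7, the transcription factor of satellite cells, was among the lowest (0.142 ± 0.0701 CPM). The contractile genes ran from TNNT3, a fast troponin (4.32 ± 1.14 CPM), down to MYBPC1, a myosin-binding protein (0.00825 ± 0.0155 CPM). CACNG1, a subunit of the muscle calcium channel, had the highest first window of the metabolic and calcium genes (4.90 ± 1.48 CPM) and SLN, sarcolipin, the lowest (0.0756 ± 0.0794 CPM). Of the fibroblast genes, COL5A1, a fibrillar collagen, was highest (3.88 ± 1.19 CPM) and DCN, the proteoglycan decorin, lowest (0.0248 ± 0.0283 CPM).

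In the comparison of first window and rest (edgeR, same thresholds), the first window was lower in 5 and higher in 1 of 16 other regulators, 10 and 3 of 38 contractile genes, and 6 and 1 of 18 metabolic and calcium genes. It was lower in 12 and higher in 0 of 23 fibroblast genes, in 6 and 0 of 10 smooth muscle genes, and in 4 and 1 of 13 keratinocyte genes. The median log2 ratio was 0.19 for the 10 muscle identity genes, −0.43, −0.39 and −0.37 for the other 3 muscle lists, and −1.12, −1.25 and −0.84 for the fibroblast, smooth muscle and keratinocyte lists. The lists were not tested against each other. No gene body of any list was called between the breeds (edgeR, FDR < 0.1 and FC ≥ 2). For gene bodies, unadjusted p-values under 0.05 (edgeR) were found for 2 of the 21 fibroblast genes tested and for none in the other 5 comparison lists. The share over all gene bodies tested was 1.53%. Of the first windows tested in these lists, those of SGCA (contractile), DMRT2 (regulator) and PKP1 (keratinocyte) also fell below that level, and none was called.

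**Figure D5:**
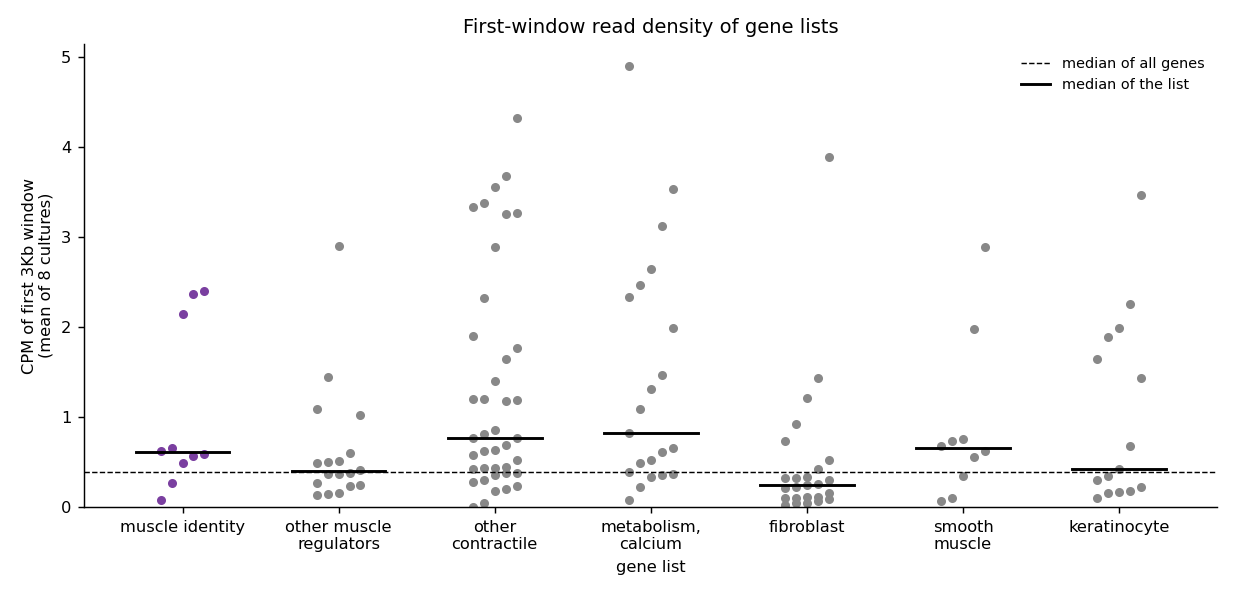
Mean CPM over 8 cultures of the first 3Kb window (vertical axis) for each gene of the muscle identity list (purple) and of 6 other lists (grey), with the median of each list as a bar and the median of all genes (0.395 CPM) as a dashed line. MYF5, MYOG and CKM stand above 2 CPM, and the fibroblast list has the lowest median of the 7 lists, at 0.253 CPM.

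The genes whose summed reads varied over the 8 libraries most like those of TTN were MPDZ (Pearson r = 0.98), PCGF5 (r = 0.98) and MEGF10 (r = 0.98), among 6265 genes with a mean of at least 10 CPM. The points share the libraries and their depth, and the values are a description.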

How the data were processed

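MIRA-Seq libraries of 4 Holstein and 4 Angus cultures were analysed, with breed and animal number taken from the sample labels. Base calling software named in the submitters' processing notes is CASAVA 1.7. Reads of low quality were discarded by the authors, who aligned the others to UMD v3.1 with NextGENe 2.3.4 and counted reads in consecutive 3Kb windows, and the deposited counts are raw. The deposited files also give the highest coverage of a base in each window, a signal not scaled for depth; it was used in no test. Treatment of duplicate and multiply mapped reads is not given in the sources used here, and no input library was used. CPM was the count per 1000000 reads in all windows of a library.

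The 10 genes and all gene lists were chosen with earlier results of these data known. Gene names, strands and coding exon numbers are those of the files, which list 1 exon number per window. The first window of a gene stood for its promoter region. Named genes were the 10 genes, any of their windows called or with an unadjusted p under 0.01 (none), and for each other list at most 3 genes with the highest and the lowest first window; other windows named were chosen after their values had been seen.

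Breeds were compared in R 4.3.3 with edgeR 4.0.16 by a likelihood-ratio test and Benjamini-Hochberg adjustment, which the study's methods name; TMM normalization was chosen here, since those methods name no scaling. The adjustment was over 115530 windows. Of these, 115360 had 1 CPM or more in 4 or more libraries, and the others were windows of the 10 genes and their flanks, added so that each had a value. Gene bodies were sums over all windows of a name (19409 tested; MSTN was added although it did not pass the filter). The first window and the rest were compared in 18839 genes, with library as a block and length as an offset. These had a mean of at least 10 reads, but the 10 genes were kept whatever their mean, which added MSTN. The SE is the log2 fold change divided by the root of the likelihood ratio. Each procedure was tested on simulated counts. The quasi-likelihood test of edgeR, DESeq2 1.42.0, other scalings and filters, a replicate block and leaving out libraries were alternatives. No pair of libraries of a breed agreed within counting noise (chi-square per window of 3.23 or more). Levels that stand for 3 reads cover counting error only.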

Additional observations from a re-analysis of the deposited data

Results flagged for a closer look

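Among 50 groups of 4 values (10 genes, their first window, gene body and highest window in each breed, where these differ), 3 held a culture that lay far from the other 3 by Dixon's criterion, which chance passes in about 1 in 20 groups. Holstein 3 had 0.568 CPM in the first window of MSTN, against 0.101 to 0.173 CPM in the other Holstein cultures. The gene body of CKM had 0.809 CPM per window in Holstein 1, against 1.46 to 1.51 CPM in the other Holstein cultures. The gene body of TTN had 0.420 CPM per window in Angus 3, against 0.757 to 0.816 CPM in the other Angus cultures. Holstein 1 and Angus 3 are the libraries with the lowest normalization factors, and the part of depth and composition in these values was not tested. The CPM values hold no such factor, and the criterion was not applied to values with the factors.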

How the results depend on the processing

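Of the windows of the 10 genes, 0 to 1 were called when 1 culture was left out (1 without Angus 1, MSTN window 3) and 0 under every other alternative; of their gene bodies, 0 were called under each alternative. Same-numbered animals did not deviate together (correlations of −0.21 to 0.13), and no labels pair them; the replicate block called 0 of the 10 genes and 14 gene bodies of all genes, against 9 in the comparison reported. The number of windows called over the genome, 268, was 423 without a fold change minimum, 138 with the quasi-likelihood test, 142 with DESeq2, 791 without the CPM filter, 158 with 1 CPM or more required in all 8 libraries, 153 without unplaced scaffolds, 146 to 564 with 1 culture left out, and 639 without Holstein 1 and Angus 3 together, an alternative added after the data were seen. The 9 gene bodies became 0 with the quasi-likelihood test, 22 with total counts only, 14 with DESeq2 size factors, 17 without the filter, 14 without Holstein 1 and Angus 3, and 4 to 12 with 1 culture left out. Genes with a lower first window, 2 of the 10, were 4 without a fold change minimum and 1 when the first 2 windows were joined; genes with a higher one, 4, were then 2 (CKM and DES). In that setting MYF5 and MYOG, with 2 windows, could not be fitted, MSTN was no longer called, and DES turned from −1.41 to 2.33. Total counts alone moved the median log2 difference of all windows to 0.14, and that of gene bodies to 0.147. The cause was not tested for the other shifts. Windows under the level of 3 reads, as in MSTN and the 5′ part of MEF2C, leave breed differences undetectable at this depth.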
